A study of Homo sapiens with 21 samples.

Results

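Prostaglandins are lipid signals that cells make from arachidonic acid, and 8 of their genes were followed here through 7 parental cancer cell lines and the 10 drug-resistant lines derived from them. The 8 genes were PTGS1, PTGS2, PTGES, PTGIS, HPGD, PTGFR, PTGER2 and PTGER4, taken by symbol and Ensembl identifier from count tables of 53515 genes, and all 8 were found in all 21 libraries. They were chosen by their measured differences between these resistant and parental lines, so their levels and differences are given below as a description and carry no test. The values that chose them were the level in each line as CPM (counts of a gene per 1000000 counts on genes) and the change of each resistant line against its parent.

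The liver cancer line HepG2 was the parent of HepG2S1 and HepG2S3, both made resistant to the kinase inhibitor sorafenib, and the pancreatic cancer line PancVB, a Panc 03.27 stock, was the parent of PancB1Q and PancB1V, made resistant to the antimetabolite 5-fluorouracil. Among lung adenocarcinoma lines, HCC4006P1 gave the erlotinib-resistant HCC4006ER, HCC4006P2 the gefitinib-resistant HCC4006GR and HCC827P the gefitinib-resistant HCC827GR, both drugs being inhibitors of the receptor EGFR. Among ovarian cancer lines, UWB1.289 gave U10 and U100, resistant to the PARP inhibitor olaparib, and IGROV-1 gave IGROV-1/CDDP, resistant to cisplatin. The labels name no drug for the parental lines and do not say whether the resistant lines were under drug when RNA was taken. The study followed the epithelial-to-mesenchymal transition, a loss of epithelial traits, in these pairs and put U10, U100 and IGROV-1/CDDP apart as partial cases. Of the 17 lines 13 had a single library, and 2 libraries were made for HCC4006P1, HCC4006ER, HepG2 and HepG2S3, and lines derived from the same parent share that parent's libraries.

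The pathway starts when phospholipases release arachidonic acid from membranes. The cyclooxygenases PTGS1 (COX-1, present in many tissues) and PTGS2 (COX-2, induced by cytokines, growth factors and stress) turn it into prostaglandin H2, and terminal synthases then make the final product, which for PTGES is prostaglandin E2 and for PTGIS prostacyclin. HPGD, 15-hydroxyprostaglandin dehydrogenase, inactivates prostaglandins, and the products act on receptors at the cell surface, PTGFR (FP) for prostaglandin F2 alpha and PTGER2 (EP2) and PTGER4 (EP4) for prostaglandin E2. In epithelial tumours PTGS2 is often high and HPGD often low.

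The total count on genes ranged from 9851195 in HepG2S1 to 36639473 in HepG2 replicate 1, so that 3 counts, the limit used for a gene with 0 counts, correspond to between 0.0819 and 0.305 CPM. Intervals and limits here cover counting error only, since reads were counted without molecular identifiers. Replicate 1 of HCC4006P1 holds no counts in a stretch of the gene order that starts at GARS1, on chromosome 7 at 30620149, and takes in PTGS1 and PTGES, and for these 2 genes only replicate 2 of HCC4006P1 was used. In replicate 2 the same genes take 18.1% of all counts, so that losing them would raise every other CPM value by 22.1%. The CPM values of replicate 1 of HCC4006P1 below are not corrected for this. Library totals outside the stretch were used as an alternative. The libraries labelled HepG2S1 and HepG2S3 went against their liver label. The 7 liver markers summed to 38642 CPM in HepG2 but to 0.609 CPM in HepG2S1 and 33.7 CPM in HepG2S3, albumin (ALB) was at 12183 CPM in HepG2, 0 in HepG2S1 and 9.17 in HepG2S3, and vimentin (VIM), a mesenchymal filament, was at 0.0976, 1215 and 1115 CPM. The study reports small copy number differences between resistant and parental lines, except in the pairs of HepG2. The part of these marker and copy number differences in the prostaglandin genes was not tested. Counts of calls over pairs are given below with and without the pairs of HepG2. The 5 lung adenocarcinoma markers, NKX2-1 and NAPSA among them, summed to 0.45 CPM in HCC4006P1 and 0.535 CPM in HCC4006ER, against 296 CPM in HCC4006P2 and 101 CPM in HCC827P. By their sums, the duct and ovary lists did not set their lines apart. The 4 duct markers measured summed to 3318 CPM in PancVB, with 3100 CPM in HepG2S3 and 4271 CPM in HCC4006P1, and the 5 ovary markers to 461 CPM in UWB1.289 and 763 CPM in IGROV-1, with 647 CPM in HCC827P.

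The genes are scattered over the genome. On GRCh37, the build of the files, PTGS1 and PTGES lie on the long arm of chromosome 9, at 125132809 to 125157982 on the plus strand and at 132500610 to 132515321 on the minus strand. PTGS2 lies on chromosome 1 at 186640923 to 186650054 on the minus strand, and PTGFR on the same chromosome at 78769568 to 79006386 on the plus strand. PTGIS lies on chromosome 20 at 48120411 to 48184674 on the minus strand, HPGD on chromosome 4 at 175411326 to 175444305 on the minus strand, PTGER2 on chromosome 14 at 52781023 to 52795316 on the plus strand and PTGER4 on chromosome 5 at 40680017 to 40693837 on the plus strand. PTGER4 lies wholly within TTC33, a gene on the opposite strand, and without a stated strand setting of the counting their reads cannot be told apart where the genes overlap. PTGFR overlaps the long non-coding RNA MGC27382 on the same strand, which had at most 22 counts in a library.

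Promoters of 7 of the 8 genes were matched by symbol in the RefSeq table, as 300 bases from 250 before to 50 after the transcription start on GRCh38.p14. Those of PTGS2, PTGES and PTGFR are shown, for a cyclooxygenase, the synthase with the largest difference and the receptor whose calls all had the same direction. PTGER4, called in 6 pairs like PTGS2 and PTGFR, is given by its CpG count only. Capitals mark every match, on either strand, to TATAAA (the TATA box), TGACG (a partial cAMP response element), GGGCGG (a GC box), CAGGTG (an E2 box) or CCAAT, and no shown match overlaps another.
PTGS2, chr1:186680374-186680673, minus strand: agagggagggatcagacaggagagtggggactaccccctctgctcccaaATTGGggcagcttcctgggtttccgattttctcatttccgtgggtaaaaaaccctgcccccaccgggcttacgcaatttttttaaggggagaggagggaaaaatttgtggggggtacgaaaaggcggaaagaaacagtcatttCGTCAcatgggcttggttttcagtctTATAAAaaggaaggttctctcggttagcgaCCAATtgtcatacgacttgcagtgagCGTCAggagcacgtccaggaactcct
PTGES, chr9:129752993-129753292, minus strand: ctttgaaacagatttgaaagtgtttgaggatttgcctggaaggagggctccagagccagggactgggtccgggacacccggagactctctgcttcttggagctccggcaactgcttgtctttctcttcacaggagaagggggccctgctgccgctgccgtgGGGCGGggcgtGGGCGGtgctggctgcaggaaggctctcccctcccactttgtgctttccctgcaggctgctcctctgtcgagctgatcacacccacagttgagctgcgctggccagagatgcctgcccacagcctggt
PTGFR, chr1:78490724-78491023, plus strand: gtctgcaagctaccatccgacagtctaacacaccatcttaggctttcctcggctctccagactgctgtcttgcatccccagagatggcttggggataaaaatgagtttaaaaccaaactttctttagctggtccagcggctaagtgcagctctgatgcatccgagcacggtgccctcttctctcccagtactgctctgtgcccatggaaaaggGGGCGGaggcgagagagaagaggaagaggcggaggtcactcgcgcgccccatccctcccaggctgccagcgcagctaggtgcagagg
The PTGS2 promoter holds a TATA box whose first base lies 32 bases before the start, a partial cAMP response element 58 bases before it and another after it, and CCAAT on both strands. TATAAA is found in 11.5% of the 35116 promoters of that length, TGACG in 24.6% and CCAAT in 34.6%. The PTGES promoter holds 2 GC boxes, 89 and 78 bases before the start, and none of the other motifs, and the PTGFR promoter holds 1 GC box 37 bases before the start, where GGGCGG is found in 45% of promoters. The 3 windows hold 12, 10 and 12 CpG pairs, under the median of 14 over all promoters, whereas those of PTGER2 and PTGER4 hold 37 and 30. These matches describe the letters and say nothing about binding in these cells.

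Each of the 8 genes was set against the parent in 10 pairs, which gives 80 values. A gene passed with at least 1 CPM in either line, and it was called higher or lower where the log2 difference of CPM + 1 was at least 1 in size and its 95% counting interval left out 0. Of the 80 values 52 passed, 27 were called higher, 8 lower and 17 passed without a call, where 11.6% of all values that passed in the 10 pairs, over all genes, were called higher and 9.33% lower. Without the pairs of HepG2, a count chosen after seeing the data, 17 values were called higher and 8 lower, where 7.92% and 7.16% of all values were. Across the pairs PTGFR was called higher 6 times, PTGER4 5 times, PTGS2 4 times, PTGES, PTGIS and HPGD 3 times each, PTGS1 2 times and PTGER2 1 time. In the 8 pairs without HepG2 these counts were 4 for PTGFR, 3 for PTGER4 and for PTGIS, 2 for PTGS2 and for PTGS1, and 1 for PTGES, HPGD and PTGER2. Calls of lower numbered 2 each for PTGS2 and PTGES, 1 each for PTGS1, HPGD, PTGER2 and PTGER4, and 0 for PTGIS and PTGFR, none of them in the pairs of HepG2. These counts come from the same contrasts that chose the genes. The weakest calls were HPGD in HepG2S3 (log2 difference 1.10), PTGFR in PancB1V (1.19) and PTGIS in U100 (1.23), and just outside lay PTGS1 in PancB1V (-0.95), PTGS1 in HCC827GR (-0.95) and PTGER2 in HCC4006ER (-0.84).

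**Figure D1:**
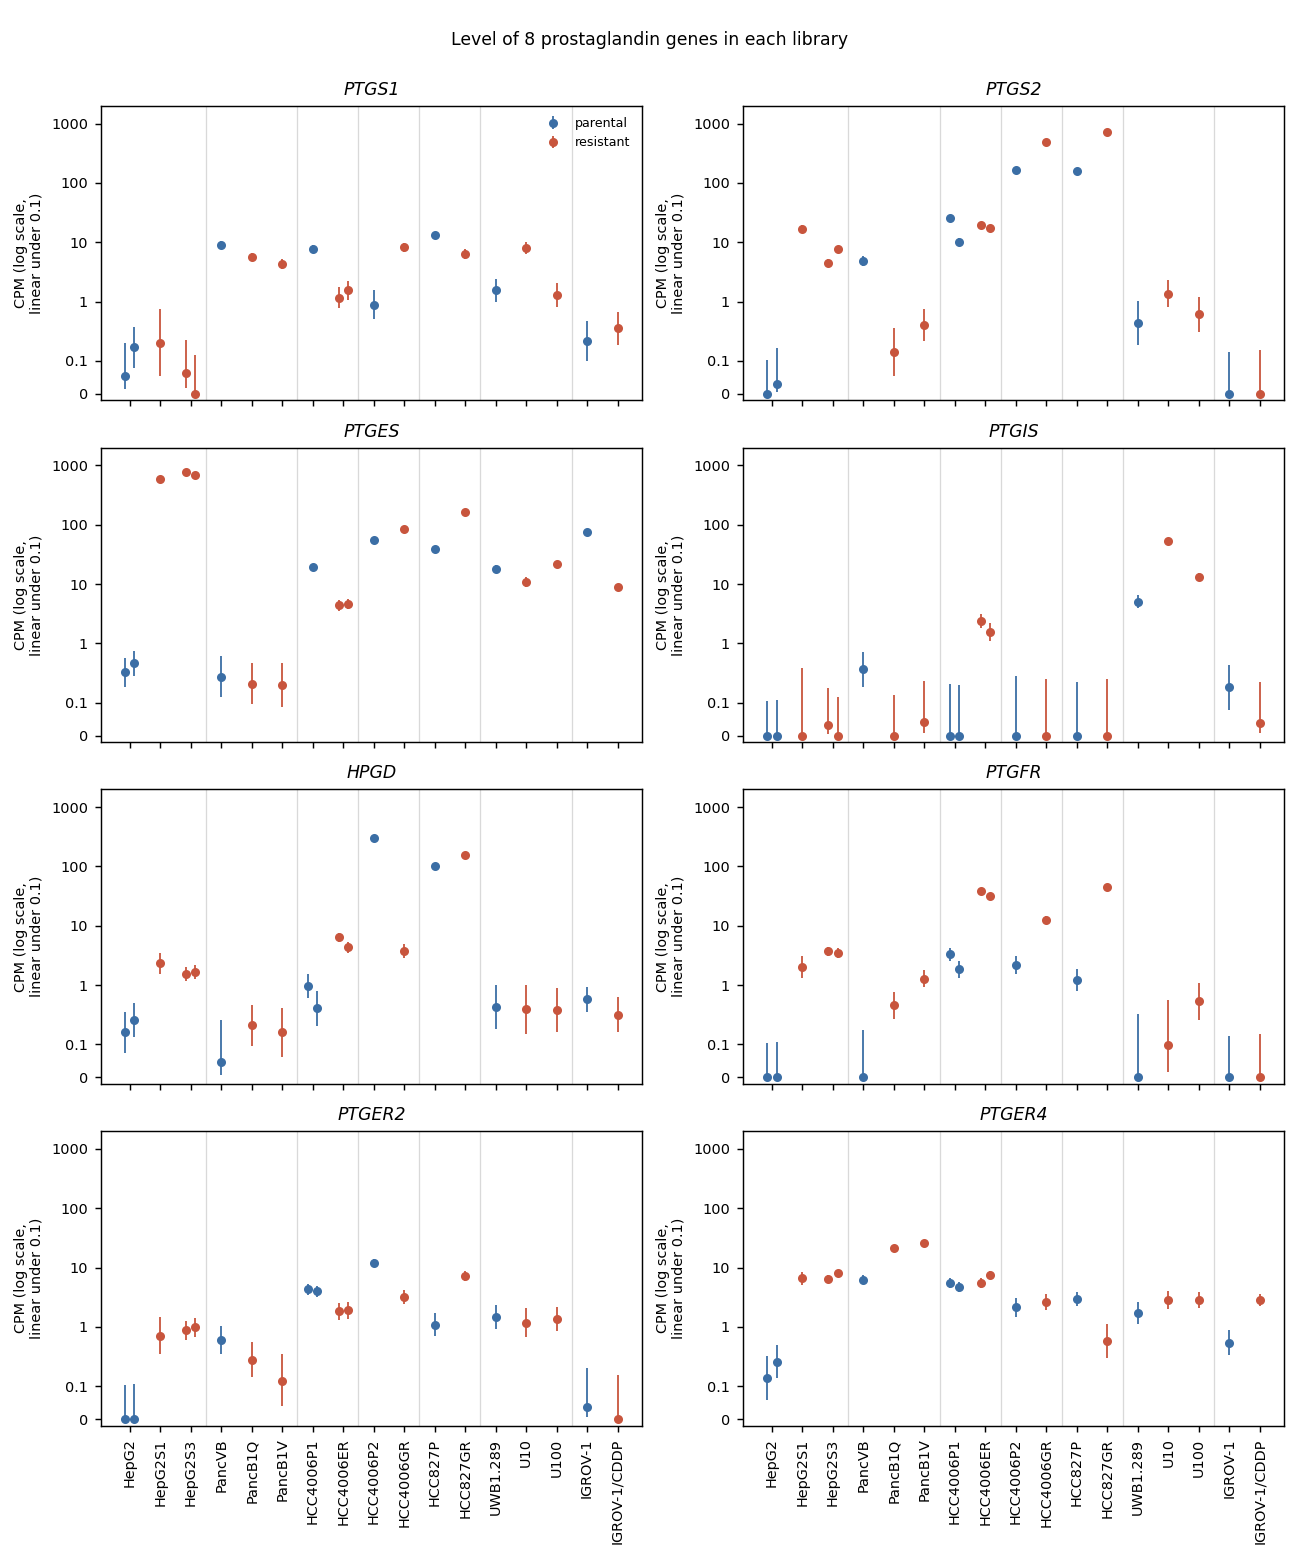
Each panel plots one gene's level in CPM (log scale, linear under 0.1) in every library of the 17 lines, blue for parental and red for resistant, with Wilson 95% counting intervals. PTGS1 and PTGES are not plotted for replicate 1 of HCC4006P1, PTGES reaches 596 to 767 CPM in the sorafenib-resistant libraries against 0.328 and 0.459 CPM in HepG2, and PTGFR is at or above its parent in every resistant line.

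PTGES, microsomal prostaglandin E synthase, showed the largest difference of the 8 genes. It was at 0.328 and 0.459 CPM in the libraries of HepG2, at 596 CPM in HepG2S1 and at 767 and 695 CPM in those of HepG2S3. The groups were far apart, with 12 and 16 counts in the HepG2 libraries against 5875, 24564 and 21291. Mean CPM was 1516-fold higher in HepG2S1 (95% interval 1052 to 2293) and 1859-fold higher in HepG2S3 (1293 to 2813), and by log2 difference PTGES ranked as number 12 of 14803 and number 6 of 14629 genes that passed in these pairs. The loss of liver markers moved with it, as given above, and both resistant lines share the HepG2 libraries. In HCC827GR PTGES was at 167 CPM against 39.5 in HCC827P, a log2 difference of 2.05 (1.93 to 2.17). In the other direction, IGROV-1/CDDP had 8.82 CPM against 74.1 in IGROV-1 (log2 difference -2.93, interval -3.11 to -2.75). HCC4006ER had 4.4 and 4.62 CPM against 19 in the usable library of HCC4006P1 (-1.86, -2.08 to -1.64), a difference that was -0.93 and not called when the empty library entered the mean. HCC4006GR (85.2 against 55.7 CPM), U10 (10.9 against 18.2) and U100 (21.6 against 18.2) stayed within a 2-fold difference, and the 3 pancreatic lines had 0.201 to 0.276 CPM, which their counting intervals do not separate.

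PTGES2 and PTGES3, the other prostaglandin E synthases and not among the 8, spread far less over the lines. A level per kb assumes reads along the whole transcript. The labels give a stranded kit, and the methods also name a 3′ tag kit without saying for which libraries. Per kb of exon, PTGES3, also a co-chaperone of HSP90, ranged from 79.4 to 236 CPM per kb and PTGES2 from 3.31 to 27.5, while PTGES ranged from 0.106 to 387 CPM per kb. In HepG2 the level of PTGES was 0.208 CPM per kb, under that of PTGES2 at 8.62, and in HepG2S3 it was 387, above PTGES3 at 179. edgeR's quasi-likelihood test with Benjamini-Hochberg adjustment gave PTGES2 a log2 fold change of 0.11 in HepG2S3 (adjusted p = 0.51) and PTGES3 one of 0.48 (SE 0.16, adjusted p = 0.043), and PTGES3 lost its call when either HepG2S3 library was left out.

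PTGS2 was high in the HCC4006P2 and HCC827 lung lines and scarcely detected in IGROV-1 and HepG2. It was at 167 CPM in HCC4006P2 and 481 in HCC4006GR, and at 159 CPM in HCC827P and 733 in HCC827GR. These differences were 1.52 (1.45 to 1.59) and 2.20 (2.14 to 2.26) on the log2 scale, and the order of the 4 lines was HCC827GR, HCC4006GR, HCC4006P2 and HCC827P, of which the last 2 did not differ beyond their counting intervals. In HepG2 PTGS2 had 0 and 1 counts, in HepG2S1 16.4 CPM and in HepG2S3 4.47 and 7.74 CPM. Against the single count of HepG2 the ratio was 1146 in HepG2S1 (208 to 46716) and 425 in HepG2S3 (77.4 to 17171), intervals that reflect how little a single count fixes. In the pancreatic lines the difference had the opposite sign, with 4.79 CPM in PancVB, 0.14 in PancB1Q and 0.403 in PancB1V, or 34.2-fold lower (13 to 128) and 11.9-fold lower (6.21 to 25.5). The libraries of HCC4006P1 (25.2 and 10.2 CPM) enclosed those of HCC4006ER (19.7 and 17.7), so no difference was seen beyond their spread. Both IGROV-1 lines had 0 counts, which allows a level of up to 0.109 CPM for the parent and 0.119 CPM for IGROV-1/CDDP, and the UWB1.289 lines had 5 to 14 counts.

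PTGS1 varied less, from 0.0312 CPM in HepG2S3 to 13.3 in HCC827P. HCC4006GR had 8.27 CPM against 0.882 in HCC4006P2, 9.38-fold higher (5.19 to 18.6), and U10 8 CPM against 1.55 in UWB1.289, 5.16-fold higher (3.07 to 9.14), whereas U100 had 1.3 CPM and lay within the interval of the parent. HCC4006ER had 1.16 and 1.54 CPM against 7.74 in HCC4006P1, 5.73-fold lower (4.17 to 8). PancB1Q, PancB1V and HCC827GR were lower than their parents by 1.63-fold, 2.15-fold and 2.07-fold and were not called, although with a pseudocount of 0.1 CPM the last 2 passed the threshold.

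Set side by side per kb of exon, PTGS2 exceeded PTGS1 in 3 of 7 parental lines and 5 of 10 resistant lines. The resistant lines were HepG2S1, HepG2S3, HCC4006ER, HCC4006GR and HCC827GR, all from parents of liver or lung origin by label. Without HepG2 and its descendants the counts were 3 of 6 and 3 of 8. By CPM, without the division by length, the same gene led in each line. PTGS2 made up 11.8% of the summed level of both genes in HepG2 (9 counts in all), 98.8% in HepG2S1 and 99.5% in HepG2S3. In the pancreatic lines its share was 35.5% in PancVB, 2.55% in PancB1Q and 9.05% in PancB1V, and in the ovarian lines it ran from 0% to 33.2%.

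**Figure D2:**
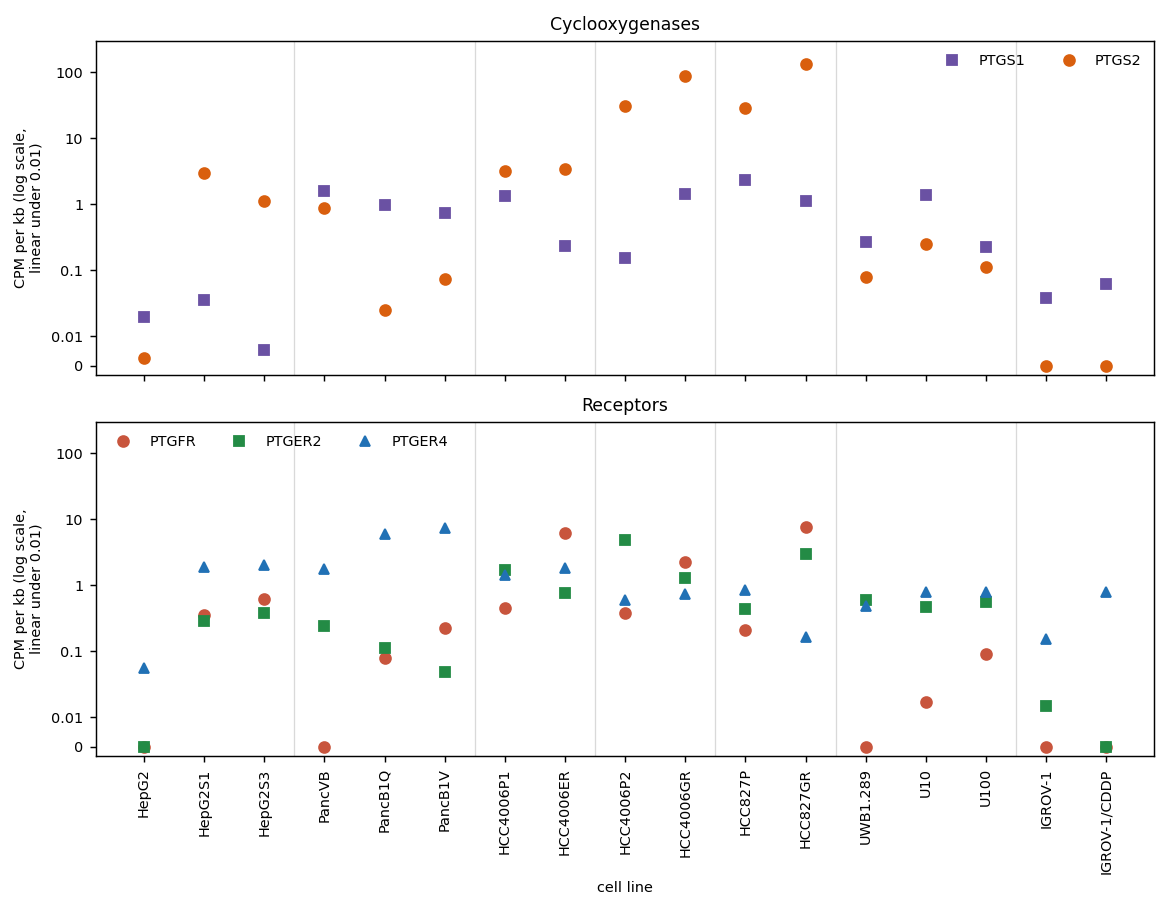
The level in CPM per kb of exon (log scale, linear under 0.01) of the 2 cyclooxygenases (top) and 3 receptors (bottom) in 17 lines, replicates averaged. PTGS2 lies above PTGS1 in every lung line and below it in every pancreatic and ovarian line, and PTGFR is the highest receptor in HCC4006ER, HCC4006GR and HCC827GR.

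PTGIS, prostacyclin synthase, had its 3 highest levels in UWB1.289 and its descendants. It was at 5.08 CPM in UWB1.289, 53.7 in U10 and 13.3 in U100, 10.6-fold (8.08 to 14.1) and 2.61-fold (1.94 to 3.58) above the parent, and the 3 values were apart beyond counting error. U10 ranked number 36 from the top among 14970 genes. In HCC4006ER it was at 2.38 and 1.54 CPM and in both HCC4006P1 libraries at 0 counts, at least 12.5-fold higher against a limit of 3 counts a library. In 8 of the 17 lines it had 0 counts, and the other 5 lines lay between 0.0156 and 0.368 CPM.

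HPGD was high in 3 lung lines. It was at 305 CPM in HCC4006P2, 154 in HCC827GR and 103 in HCC827P, in each step beyond counting error, and at or under 5.4 CPM in the other 14 lines. HCC4006GR had 3.77 CPM, 81-fold lower than HCC4006P2 (62.4 to 107), the largest difference downwards among the 80 values. HCC827GR was 1.5-fold higher than HCC827P (1.41 to 1.59) and was not called. HCC4006ER, with 6.43 and 4.37 CPM, was 7.86-fold higher than HCC4006P1 (5.27 to 12.4), whose libraries had 0.962 and 0.41 CPM. HepG2S1 was at 2.33 CPM and HepG2S3 at 1.53 and 1.66, against 0.164 and 0.258 in HepG2, or 11.1-fold (5.56 to 22.9) and 7.57-fold (4.4 to 14.1) higher. The parents of HCC4006ER and HCC4006GR are stocks of the same line, and HPGD stood at 0.686 CPM in HCC4006P1 and 305 in HCC4006P2. PTGS2 stood at 17.7 and 167 CPM in these parents and PTGER2 at 4.14 and 12.1, while PTGS1 stood at 7.74 and 0.882. NKX2-1, a lung lineage transcription factor, was at 0.0802 CPM in HCC4006P1, 113 in HCC4006P2, 18.6 in HCC4006GR, 56 in HCC827P and 15.4 in HCC827GR. NAPSA, also on the lung marker list, was at 143 CPM in HCC4006P2, 1.52 in HCC4006GR, 35.4 in HCC827P and 12.3 in HCC827GR. The part of NKX2-1 or of the other lung markers in the level of HPGD was not tested.

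**Figure D3:**
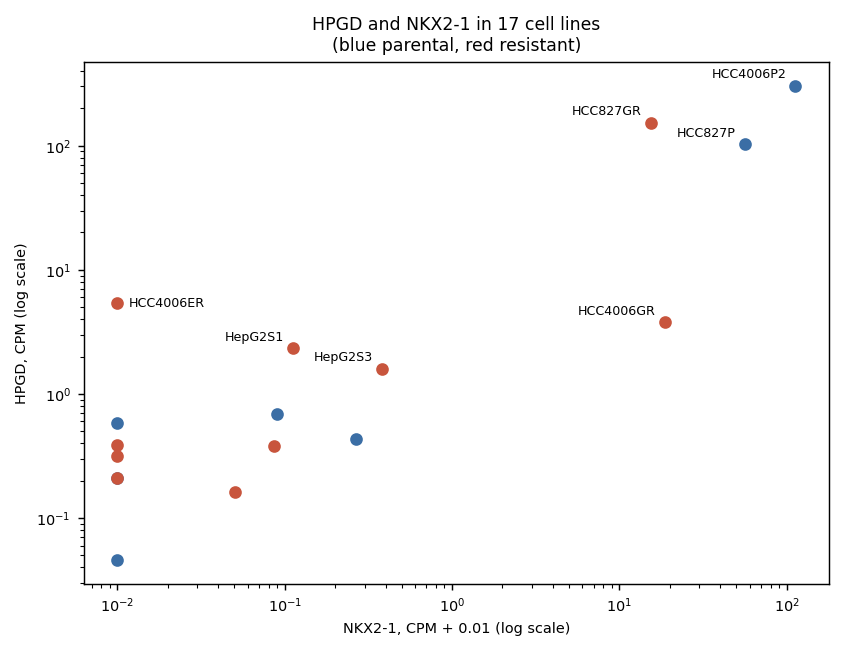
Each point is a cell line, with NKX2-1 in CPM + 0.01 on the x axis and HPGD in CPM on the y axis (both log scales), blue parental and red resistant. HCC4006P2, HCC827P and HCC827GR lie at 103 to 305 CPM of HPGD. HCC4006GR lies at 3.77 CPM of HPGD and 18.6 CPM of NKX2-1, against 113 CPM of NKX2-1 in HCC4006P2.

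PTGFR, the prostaglandin F receptor, was the only gene of the 8 that lay at or above the parent in all 10 pairs. It was at 3.31 and 1.85 CPM in HCC4006P1 and 38.8 and 32.1 in HCC4006ER, a 13.7-fold difference (11.3 to 17.1) with no overlap of the libraries. HCC4006GR had 12.8 CPM against 2.2 in HCC4006P2, 5.79-fold higher (3.93 to 8.82). HCC827GR had 44.4 CPM against 1.21 in HCC827P, 36.6-fold higher (23.8 to 59.6), number 49 from the top among 14423 genes. In the lung lines every resistant value thus lay above every parental value. HepG2 had 0 counts in both libraries, and HepG2S1 was at 2.03 CPM and HepG2S3 at 3.72 and 3.52, at least 24.2-fold and 43.1-fold higher. PancVB had 0 counts, PancB1Q 0.455 CPM (13 counts) and PancB1V 1.288 CPM (32 counts), at least 3.3-fold and 9.33-fold higher. UWB1.289 had 0, U10 1 and U100 7 counts, and both IGROV-1 lines had 0. Of the parents, 4 had 0 counts, where a resistant line can only lie level or above.

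PTGER4, the EP4 receptor, was called higher in 5 pairs and lower in 1, or 3 and 1 without the pairs of HepG2. It was at 6.26 CPM in PancVB, 21.1 in PancB1Q and 25.9 in PancB1V, 3.37-fold (2.8 to 4.09) and 4.14-fold (3.44 to 5.02) above the parent, and these were the highest of the 17 lines. HepG2 had 0.136 and 0.258 CPM, HepG2S1 6.6 and HepG2S3 6.44 and 8.06, 33.4-fold (18.7 to 65) and 36.7-fold (21.8 to 68.1) higher. IGROV-1/CDDP had 2.81 CPM against 0.546, 5.15-fold higher (2.92 to 9.67). HCC827GR had 0.579 CPM against 3 in HCC827P, 5.18-fold lower (2.53 to 12). The values in HCC4006ER (5.52 and 7.5 against 5.45 and 4.72), HCC4006GR, U10 and U100 were not called. TTC33, the overlapping gene, had log2 differences of 1.80 in HepG2S1, 1.79 in HepG2S3 and 1.42 in HCC4006ER, all called higher, and of 0.69 and 0.51 in PancB1Q and PancB1V and 0.73 in IGROV-1/CDDP, which were not, and its part in PTGER4 counts was not tested.

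PTGER2, the EP2 receptor, differed in opposite directions in the gefitinib-resistant lines. HCC4006GR had 3.18 CPM against 12.1 in HCC4006P2, 3.82-fold lower (2.75 to 5.38), and HCC827GR 7.27 CPM against 1.1 in HCC827P, 6.63-fold higher (4.06 to 11.4). HCC4006ER had 1.82 and 1.9 CPM against 4.28 and 4 in HCC4006P1, a log2 difference of -0.84 (-1.12 to -0.56) that missed the threshold and met it with a pseudocount of 0.1 CPM. HepG2 had 0 counts in both libraries and HepG2S3 0.875 and 0.979 CPM, which did not pass the 1 CPM filter but is at least 11-fold higher. The ovarian values were at or under 1.46 CPM.

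Per kb, the highest of the 3 receptors was PTGER4 in 4 of 7 parental lines and PTGER2 in 3, and it was PTGER4 in 7 of 10 resistant lines and PTGFR in the other 3. Without HepG2 and its descendants it was PTGER4 in 3 of 6 parental lines and 5 of 8 resistant ones. By CPM, without the division by length that a 3′ tag kit would not call for, PTGER4 led in 6 of the 7 parental lines and PTGER2 in 1, so that HCC4006P1 and UWB1.289 changed sides, and the resistant lines kept the receptor that led. In HCC827GR the levels were 7.70 CPM per kb for PTGFR, 2.95 for PTGER2 and 0.163 for PTGER4, and in HCC827P they were 0.21, 0.445 and 0.846, so the order was turned round.

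Pair by pair, the sorafenib-resistant lines had 5 of the 8 genes called higher and 0 lower in each, where 25.5% of genes were called higher and 18.4% lower in HepG2S1 and 27.3% and 17.7% in HepG2S3. The median of all genes that passed was itself shifted by 0.25 and 0.28 in these pairs, and relative to it PTGES lay at 8.50 and 8.76. In the pancreas 1 gene was called higher and 1 lower in PancB1Q (6.1% and 9.41% of genes) and 2 and 1 in PancB1V (8.89% and 7.25%). In the lung 3 were higher and 2 lower in HCC4006ER (11.8% and 11.7%), 3 and 2 in HCC4006GR (7.75% and 7.47%) and 4 and 1 in HCC827GR (10.6% and 7.67%). In the ovary 2 were higher in U10 and 1 in U100 with 0 lower (6.27% and 5.11%, 6.43% and 1.73%), and 1 was higher and 1 lower in IGROV-1/CDDP (5.55% and 7.21%). Nothing is read from these shares, since the genes were picked for these differences.

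**Figure D4:**
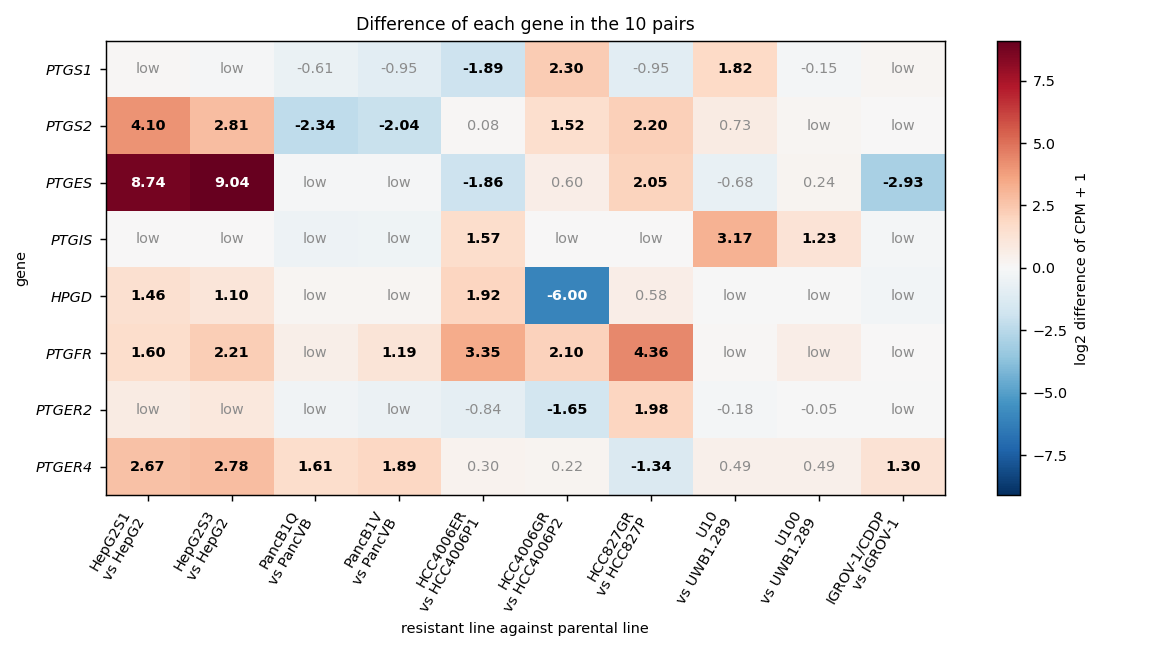
Colour and number give the log2 difference of CPM + 1 of each gene (rows) in each resistant line against its parent (columns), bold where called and "low" where neither line reached 1 CPM. PTGFR has 6 bold values, all positive, and the extremes are PTGES at 9.04 and HPGD at -6.00.

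Lines derived from a shared parent differed in some genes. U10 had PTGIS at 53.7 CPM and PTGS1 at 8 against 13.3 and 1.3 in U100. HepG2S1 had PTGS2 at 16.4 CPM against 4.47 and 7.74 in HepG2S3, above both libraries. PancB1V had PTGER4 at 25.9 CPM against 21.1 in PancB1Q, a gap beyond counting error. These differences between lines with a single library have no replicate check.

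Genes of the same pathway that are not among the 8 were also tested, in 4 lists with 61 genes. The lists held 28 genes of the pathway itself, 9 regulators of PTGS2, 15 genes that respond to cAMP or early signals and 9 of the lipoxygenase branch. That branch makes leukotrienes from the same acid. The lists, too, were chosen with earlier results of these data known. Their counts and medians beside those of all genes are therefore given as a description. In HepG2S3 against HepG2, edgeR called 34 of the 44 tested (24 higher, 10 lower), where 63.5% of 16929 genes were called, 31.4% higher and 32.1% lower, and the median log2 fold change was 0.70 in the lists and -0.01 over all genes. Of the pathway list 10 were higher and 4 lower of 18 tested, of the regulators 5 and 2 of 8, of the response genes 8 and 3 of 13, and of the lipoxygenase branch 1 and 1 of 5. These libraries lack most liver marker RNA, as given above, and the part of that in the listed genes was not tested.

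Upstream of PTGS2, PLA2G4A, the cytosolic phospholipase that releases arachidonic acid, went from 0.213 CPM in HepG2 to 56.8 in HepG2S3 (edgeR log2 fold change 7.74, SE 0.47, adjusted p = 0.000149). TBXA2R, the thromboxane receptor, rose by 4.80 (SE 0.32) and PTGR1, a prostaglandin reductase, by 2.82 (SE 0.17), with edgeR adjusted p = 0.000204 and 0.00014. PLA2G2A, a secreted phospholipase, fell from 32.6 CPM to 0.0163 (1 count), AKR1C3, a prostaglandin F synthase, fell by 4.72 and PTGDR2, a prostaglandin D2 receptor, fell by 6.31 (edgeR adjusted p = 0.00109, 0.000432 and 0.00284). Among regulators IL1B, a cytokine that induces PTGS2, rose by 6.03 and IL1A by 3.31, and IL6 had 0 counts in HepG2 and 0.854 CPM in HepG2S3, at least 10.2-fold higher (edgeR adjusted p = 0.000302, 0.000523 and 0.00782). RELA fell by 0.85 and CEBPB by 0.40 (edgeR adjusted p = 0.00284 and 0.0356), and both lost the call when either HepG2S3 library was left out. Among response genes RGS2, an inhibitor of Gq signalling, rose by 7.31, NR4A3 by 4.01 and PER1 by 3.37, while EGR1 fell by 5.80, CXCL8 by 3.55 and VEGFA by 1.26. In the lipoxygenase branch LTA4H rose by 0.73 and LTB4R, a leukotriene B4 receptor, fell by 0.93, calls that were lost without replicate 1 of HepG2S3 and, for LTB4R, without either HepG2S3 library.

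In HCC4006ER against HCC4006P1, without the genes of the empty stretch, edgeR called 26 of 42 tested (8 higher, 18 lower), where 49.0% of 12791 genes were called, 24.1% higher and 24.9% lower, and the median log2 fold change was -0.36 in the lists and 0.01 over all genes. The pathway list split evenly with 5 higher and 5 lower of 14, no regulator was higher and 3 of 8 were lower, the response list had 3 higher and 7 lower of 14, and 3 of 6 lipoxygenase genes were lower. PLA2G4C, another cytosolic phospholipase, rose by 2.06 (SE 0.26, edgeR adjusted p = 0.0011), and ABCC4, which exports prostaglandins, by 1.22 (SE 0.14, adjusted p = 0.000792). PTGER3, the EP3 receptor, was called higher at a low level, 0.0802 against 0.612 CPM (3 and 24 counts), and the call was lost with DESeq2. PLA2G4F fell from 3.38 CPM to 0 counts, at least 22.1-fold lower, AKR1C3 by 2.94 and SLCO2A1, which carries prostaglandins into cells for breakdown, by 1.57 (edgeR adjusted p = 0.000322, 0.00116 and 0.000374). ALOX5, 5-lipoxygenase, fell from 53.2 to 1.86 CPM (edgeR log2 fold change -4.76, SE 0.20, adjusted p = 1.6e-05), ALOX15 fell by 5.56 and ALOX5AP, the protein that presents arachidonic acid to ALOX5, by 1.70, a call that was lost with DESeq2, without replicate 1 of HCC4006P1 and without either HCC4006ER library. Among regulators IL1A fell by 2.31, ZFP36, which promotes decay of cytokine and PTGS2 mRNA, by 0.95, and CEBPB by 0.41, and the calls of IL1A and CEBPB were lost when either HCC4006ER library was left out, that of IL1A also with DESeq2. Among response genes AREG went from 1.14 CPM to 0 counts, CXCL8 fell by 4.86 and EGR1 by 2.23, while RGS2 rose by 1.96, DUSP1, a phosphatase of MAP kinases, by 1.57 and VEGFA by 1.21. PLA2G4A rose by 0.76 (SE 0.26, adjusted p = 0.0493), a call that was lost without replicate 1 of HCC4006ER.

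**Figure D5:**
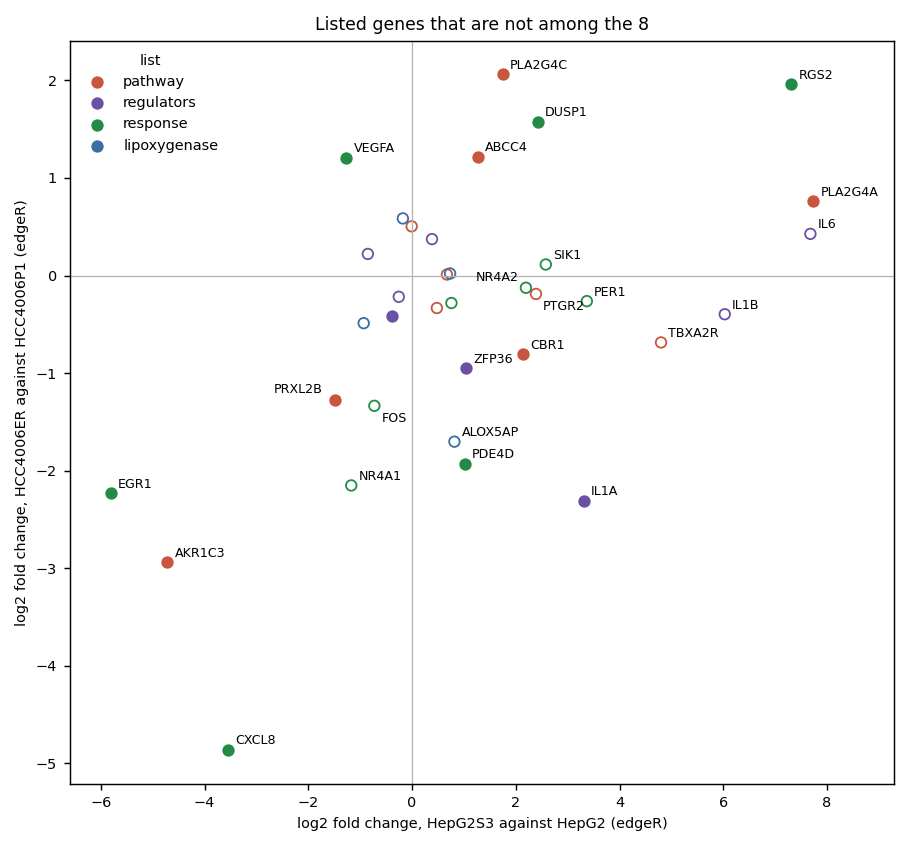
The edgeR log2 fold change of 35 listed genes tested in both pairs, HepG2S3 against HepG2 on the x axis and HCC4006ER against HCC4006P1 on the y axis, coloured by list and filled for the 15 called in both. RGS2, DUSP1, PLA2G4C, ABCC4 and PLA2G4A are filled at the upper right, EGR1, AKR1C3, CXCL8, PRXL2B and CEBPB at the lower left, and IL6, whose HepG2 libraries hold 0 counts, has a fitted value that depends on the prior count.

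By an edgeR interaction test, the change differed between the HepG2S3 and the HCC4006ER pair for 25 of the 45 listed genes tested. Of these, 21 had a higher change in HepG2S3 and 4 a lower one. Over all genes, 55.9% of 14479 were called, 28.2% and 27.7% in these directions. HepG2S3 held little liver marker RNA, and HCC4006P1 and HCC4006ER held little RNA of the lung markers, as given above. The largest difference in the pathway was that of PLA2G4A, whose change was 7.00 higher in HepG2S3 (SE 0.54, edgeR adjusted p = 1e-05), followed by TBXA2R (5.51, SE 0.50) and CBR1, a carbonyl reductase that acts on prostaglandin E2 (2.98, SE 0.26). IL1B and IL1A differed by 6.45 and 5.65 and RGS2 and PER1 by 5.37 and 3.66, all with the higher change in HepG2S3. The lower changes in HepG2S3 were those of AKR1C3 (-1.74), RELA (-1.05), EGR1 (-3.54) and VEGFA (-2.44). ALOX5 (7.51), ALOX15 (5.40), ALOX5AP (2.55) and LTA4H (0.74) of the lipoxygenase branch differed too, with ALOX5 at 1 and 9 counts in HepG2 and HepG2S3.

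Over the 7 parental lines, with resistant lines of a shared parent summed and the parental line as a block, edgeR called 0 of 52 listed genes and 0 of 19829 genes in all. At an unadjusted p under 0.05 there were 920 genes, and DESeq2 called 113, among them 4 listed genes, all higher in the resistant lines, namely PLA2G4C, IL6, NR4A3 and DUSP1 (DESeq2 adjusted p = 0.00559, 0.0497, 0.029 and 0.00317). The edgeR log2 fold changes of these were 1.83, 2.76, 2.05 and 1.55. HCC4006P1 entered through replicate 2 only. HCC4006P1 and HCC4006P2, stocks of the same line, entered as separate blocks. With both taken as 1 parental line edgeR called 0 of 20071 genes, and DESeq2 was not run that way.

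The same size rule, with no test, was applied to the 61 listed genes in the single-library pairs, and the shares of all genes called in each are those given above for the pair. In HCC4006GR 47 passed, 13 were higher and 11 lower (7.75% and 7.47% of all genes), and in HCC827GR 41 passed, 12 were higher and 2 lower (10.6% and 7.67%). In U10 42 passed, 11 were higher and 0 lower (6.27% and 5.11%), in U100 46 passed, 15 were higher and 0 lower (6.43% and 1.73%), and in IGROV-1/CDDP 35 passed, 4 were higher and 1 lower (5.55% and 7.21%). In PancB1Q 43 passed, 2 were higher and 12 lower (6.1% and 9.41%), and in PancB1V 43 passed, 6 were higher and 7 lower (8.89% and 7.25%).

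Other genes that sit between the 8 had wide or narrow ranges. PLA2G4A reached 1 CPM in 12 lines, with a median of 10 CPM and 0 counts in both IGROV-1 lines. SLCO2A1 ran from 0.035 CPM in PancB1Q to 488 in HCC4006GR, and it was at 407 CPM in HCC4006P2 and 25.1 in HCC4006P1. PTGFRN, a regulator of PTGFR, was above 1 CPM in all 17 lines (21.2 to 224 CPM), and PTGER3 was so only in U100 at 3.13 CPM.

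The likeness of other genes to each of the 8 was measured as Pearson's r of log2(CPM + 1) over the 17 lines. The candidates were 13138 genes with at least 1 CPM in 3 or more lines. Genes of the empty stretch, where PTGS1 and PTGES lie, and genes not matched to the annotation were left out. The points share parents and libraries, so r is a description. Of the 24 genes named here 7 were also named by Spearman's rho and 14 with a pseudocount of 0.1 CPM, so the names depend on the measure. HPGD was most like NAPSA (r = 0.93), KCNK2 (0.91) and NKX2-1 (0.91), of which NAPSA and NKX2-1 were also on the lung marker list. PTGIS was most like TRPC4, LILRB2 and POU3F3 (all 0.96), which follow UWB1.289 and its descendants. PTGES was most like MSRB2 (0.91), SEC14L4 (0.87) and EFNA3 (0.87). PTGER4 was most like ANKRD28 (0.89), ANXA2P1 (0.88) and SERTAD4-AS1 (0.85), and PTGS1 most like MBP (0.86), G0S2 (0.85) and TMEM154 (0.85). PTGS2 was most like DHRS7B (0.92), FOSL2-AS1 (0.91) and MAPK7 (0.90), PTGFR most like LINC02593 (0.89), USP22 (0.89) and BDKRB2 (0.85), and PTGER2 most like MTMR9LP (0.90), TOM1L2 (0.89) and F2RL3 (0.87). DHRS7B, MAPK7, USP22 and TOM1L2 lie together on chromosome 17 between 17746825 and 21096578 on GRCh37, a feature noticed after their names were known. USP22 was at 373 to 611 CPM in the 6 lung lines and at 221 to 313 CPM in the other 11. Among the 8 themselves, r was highest for PTGS2 with HPGD (0.82), PTGER2 (0.78) and PTGFR (0.74), and lowest for PTGS2 with PTGIS (-0.31). PTGS2, HPGD, PTGER2 and PTGFR each had their highest level in a lung line, though not all in the same line.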

How the data were processed

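RNA of 21 libraries from 17 cell lines was sequenced as mRNA. Per the labels a stranded kit was used, and the methods name a 3′ tag kit as well, with the kit of each library not stated. The submitters' processing notes list Bowtie, TopHat, SAMtools and HTSeq with the hg19 build, with no versions, roles or strand setting. In the methods, Bowtie and TopHat go with the stranded kit and Star, which the notes do not list, with the 3′ tag kit. The values deposited by the authors are raw counts per Ensembl gene for each library, with no normalization and no pooling. Rows that name no gene, such as ambiguous or unassigned reads, held 28.0% to 42.8% of all rows' counts and were left out of library sizes.

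Symbols, coordinates and exon lengths came from GENCODE v44 lifted to GRCh37, which matched 45100 of 53515 genes. The 8 genes, the gene lists and the tests were chosen with earlier results of these data known. CPM was taken over the total count on genes, libraries of a line were averaged, and log2 differences used CPM + 1. Library intervals are Wilson 95% intervals, intervals of a difference combine those of both lines, and fold intervals are exact conditional binomial ones. All cover counting error only.

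The listed genes were tested with edgeR 4.0.16 in R 4.3.3 (quasi-likelihood test, TMM, filterByExpr, Benjamini-Hochberg adjusted p under 0.05 over all genes tested). HCC4006ER was tested without the stretch empty in replicate 1 of HCC4006P1 and without the 8415 genes not matched. The test over 7 parental lines used counts summed per parental line and state. Libraries of a line are not said to come from separate cultures, so p-values measure a spread that may be technical. In each test the called genes named are at most the 3 of the largest change per list and direction, with PLA2G4A, PTGES2, PTGES3, PTGFRN, PTGER3 and SLCO2A1 named for their place in the pathway. Scripts were tested on simulated counts. Alternatives were DESeq2 1.42.0, other size factors, no filter, a replicate block, libraries left out, a pseudocount of 0.1 CPM and other library sizes.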

Additional observations from a re-analysis of the deposited data

Results flagged for a closer look

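Several genes changed in opposite directions in the 2 pairs that had 2 libraries on each side. The change in HepG2S3 minus that in HCC4006ER, on the log2 scale and by an edgeR interaction test with Benjamini-Hochberg adjustment, was 2.98 for CBR1, 5.65 for IL1A, 2.97 for PDE4D (a phosphodiesterase that degrades cAMP), 2.02 for ZFP36 and -2.44 for VEGFA. Each of the 5 was called in both pairs, and IL1A in HCC4006ER lost its call without either HCC4006ER library. CBR1 changed by 2.15 in HepG2S3 and -0.81 in HCC4006ER, PDE4D by 1.02 and -1.93, and ZFP36 by 1.04 and -0.95. VEGFA changed by -1.26 and 1.21.

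PTGES was higher in both HepG2S3 libraries than in both HepG2 libraries and lower in both HCC4006ER libraries than in the usable HCC4006P1 library. The log2 differences stood 10.90 apart, and the difference was not tested, since PTGES was picked for its changes.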

How the results depend on the processing

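Under the alternatives, 1487 values of single genes were recomputed. Of the values with a call, 0 reversed direction. A change of sign in a value without a call was not counted as a reversal. PTGS2 in HCC4006ER, at 0.08 and not called, was such a value. Without replicate 2 of HCC4006P1 the parent was at 25.2 CPM, above both HCC4006ER libraries (19.7 and 17.7 CPM). Of 529 values of listed genes 50 lost the edgeR call, and of 958 values of the 8 genes 57 moved beyond the counting interval. The pseudocount of 0.1 CPM gave 42 of these moves, and 38 values stayed within the interval under it. Leaving out a library can change only the pairs of its line, so most values recomputed that way could not move. Using both HCC4006P1 libraries can change only PTGS1 and PTGES in HCC4006ER. Of the 958 values 1 lost its call, PTGES in HCC4006ER with both HCC4006P1 libraries (-0.93). Another 5 gained one, among them PTGER2 in HepG2S3 (1.09) with totals outside the empty stretch. With a pseudocount of 0.1 CPM the calls of the 8 genes were 28 higher and 11 lower in place of 27 and 8. The share of all genes called at this pseudocount is not given, so nothing is read from the rise. PTGS1 in PancB1V (-1.08) and HCC827GR (-1.04) and PTGER2 in HCC4006ER (-1.11) were added as lower. PTGS2 in U10 (1.47) was added as higher. Without the pairs of HepG2 the count called higher was 17, where 7.92% of all values that passed were called higher. PTGS2 then led PTGS1 in 3 resistant lines in place of 5. By CPM PTGER2 led the receptors in 1 parental line in place of 3. These alternatives were chosen after seeing the data. Of the 24 genes most like the 8, 7 were named by Spearman's rho and 14 with a pseudocount of 0.1 CPM. In HCC4006ER edgeR called 3417 genes and 13 listed ones with all genes kept, against 6266 and 26. Leaving out 1 library gave 4046 (HCC4006ER replicate 1) to 8370 genes and 20 to 32 listed ones there, and 7341 to 13242 genes and 25 to 41 listed ones in HepG2S3, where the lone library is assumed to vary like the others. Over 7 parental lines DESeq2 called 113 genes, of which 4 were listed, and edgeR 0.

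With the replicate number as a block edgeR called 10561 genes (30 listed) in HepG2S3 and 7787 (29 listed) in HCC4006ER. Without the block the counts were 10744 and 6266. Same-numbered libraries correlated at 0.0123 in the HepG2S3 pair and 0.30 in the HCC4006ER pair in their deviations. The number is not stated to mark a shared culture or batch, and whether same-numbered libraries share one was not tested. In each of these lines the number stands for the letters A and B of the labels. The titles number both HepG2 libraries 1 and both HepG2S3 libraries 2. The block ended the calls of PTGES3, PLA2G6, CEBPB and ELAVL1 in HepG2S3. Depth limits genes under about 0.305 CPM in the shallowest library, and 13 of 17 lines had 1 library.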
